A study of Mus musculus with 12 samples.

Results

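The genes that encode the protein subunits of the cytosolic ribosome were followed across RNA libraries of group 2 innate lymphoid cells (ILC2s), lymphocytes that secrete type 2 cytokines and lack rearranged antigen receptors. Members were chosen by name. Protein-coding genes with an Rps or Rpl symbol and a number were taken with Rplp0, Rplp1, Rplp2 and Rpsa, and ribosomal S6 kinases, pseudogenes and mitochondrial ribosomal proteins were left out. This gave 85 of 29542 genes, 33 of the small subunit (Rps and Rpsa) and 52 of the large subunit (Rpl and Rplp). In all, 83 members passed the filter on low counts. The other two were Rpl10l, a testis paralog of Rpl10 listed at 0 in all 12 libraries, and Rpl3l, a paralog of Rpl3 used by muscle, at 0.184 to 1 TPM, a level corrected for transcript length.

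The study asked how ILC2s differ when they develop with or without Rag1, a subunit of the recombinase that assembles antigen receptor genes. Hosts were CD45.1 congenic mice given 950 cGy and then equal parts of CD45.2 Rag1-/- marrow and CD90.1 WT marrow. ILC2s of both origins were sorted from skin-draining lymph nodes 8 or 20 weeks later, on the C57BL6 background. The series description names 12 weeks as the later time, and the sample labels, which name 20, were used. Every host received IL-33, which expands ILC2s, on 7 consecutive days, with 30 ng into the skin of each cheek and 240 ng into the peritoneum. The 4 groups of 3 libraries were therefore WT and knockout-labelled cells at 8 weeks and WT and knockout-labelled cells at 20 weeks, all from irradiated and IL-33-treated mixed chimeras. Whether the 3 libraries of a group stem from different mice is not given in the labels. The p-values then describe library-to-library spread, which may be technical.

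A ribosome is built from ribosomal RNA and one copy each of most ribosomal proteins, so cells make these proteins in matched amounts, and growing lymphocytes make many. Most ribosomal protein mRNAs are short and begin with a run of pyrimidines, the 5′ terminal oligopyrimidine tract, through which mTORC1 signalling sets their translation. The genes have also left many processed copies in the genome, most of them pseudogenes, whose sequence is almost that of the parent mRNA.

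The start-site letters below show examples of the run of pyrimidines, not the longest ones, in small subunit and stalk members and in the closely related pair Rps27 and Rps27rt. They come from RefSeq promoter windows (GRCm38.p6), are written 5′ to 3′ on the gene's strand with 10 bases before the annotated start, and carry in capitals the run, which opens with a C and has at least 4 more pyrimidines. In order, they lie at chr17:33955646-33955675 (minus strand), chr7:3704031-3704060 (plus strand), chr7:141447641-141447670 (plus strand), chr3:90213629-90213658 (minus strand) and chr9:114982720-114982749 (minus strand).
Rps18: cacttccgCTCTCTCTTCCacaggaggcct
Rps9: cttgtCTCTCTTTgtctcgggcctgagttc
Rplp2: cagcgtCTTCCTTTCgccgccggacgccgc
Rps27: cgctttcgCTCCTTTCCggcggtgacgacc
Rps27rt: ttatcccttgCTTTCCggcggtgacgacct

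Windows were found for 65 members, which had 77 annotated starts. A run opening within 5 bases of the start was present at 41.6% of these starts, in 30 of the 65 members, against 18.3% of all 32851 windows. The letters CCGGAAG, the core bound by ETS factors, were found on either strand in 35.1% of member windows of 250 bases before to 50 after the start, against 8.86% of all windows. AAGATGGC, the core of the YY1 motif, was found in 10.4% against 2.75%, and TATAAA in 9.09% against 13.6%. These are descriptions of letters, and an annotated start can lie some bases from the start that cells use.

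A second set of sequences shows how little separates some members from other genes, which bears on every count given below. Each line holds 30 bases of coding sequence or of its copy (GENCODE M21, GRCm38), with the differing bases in capitals and positions counted from 1 at the A of the start codon. Rps13 and its processed pseudogene Rps13-ps1 are shown at 397 to 426 and differ at 2 positions in 456 bases (T411C and A429G). Rpl39 and its paralog Rpl39l are shown at 1 to 30 and differ at 23 positions in 156 bases, of which the first are T4G, T18C, C22A and A24G.
Rps13: cgggtgctcccaccTaattggaaatatgag
Rps13-ps1: cgggtgctcccaccCaattggaaatatgag
Rpl39: atgTcttctcacaagacTttcCgAatcaag
Rpl39l: atgGcttctcacaagacCttcAgGatcaag

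Rps27 and Rps27rt have the same 255 coding bases, with 0 differences. The deposited estimates rest on 20-base words, and 322 of the 326 words of Rps27 also occur in Rps27rt. A median of 30.9% of a member's 20-base words occurred in another gene. At least 50% were shared in 22 members and at least 90% in 4, while 10 members shared under 10%. In total 376 other genes, 367 of them pseudogenes, had at least 50% of their own words in a member, and 74 members had at least 1 such near-identical gene. Below, a member is given alone and, where it matters, summed with its near-identical genes. That sum was added after the data had been seen.

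Estimated reads ranged from 11433625 to 32529806 per library. All 12 listed ILC2 markers were present in the libraries, with a summed level of 5260 to 8220 CPM, estimated reads scaled to library size with TMM factors. Summed markers of other cells were far lower. T cell markers summed to 137 to 236 CPM, B cell markers to 102 to 432, NK markers to 47.3 to 247, stromal and endothelial markers to 118 to 164, myeloid markers to 6.84 to 24.7 and red cell markers to 2.51 to 20.4, with S100a9 and Lyve1 at 0 throughout. Rag1 had 0 estimated reads in all 6 WT libraries and 10.8 to 18.4 in 5 of the 6 knockout-labelled libraries, which goes against the labels. The labels do not say which part of the gene the knockout allele lacks. Genotype directions below therefore follow the labels as given. Thy1, which encodes CD90, lay at 2.94 to 5.68 CPM in WT and at 16.8 to 37.8 CPM in knockout-labelled libraries. The knockout-labelled replicate 3 of 8 weeks stood apart, with 24.53% of its reads on 10 genes against 8.85% to 15.03% in the others, and the smallest library, WT replicate 2 of 8 weeks, stood apart in which transcripts it used.

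Levels were compared between members per length. Rps19, a small subunit protein whose loss causes Diamond-Blackfan anaemia, was highest at a mean of 6930 TPM (SD 1010 over the 12 libraries). It was followed by Rpl32 at 6530 TPM (SD 1390), Rpl41, which encodes the shortest ribosomal protein, at 5970 TPM (SD 1630), Rps14 at 5500 TPM (SD 1360) and Rps18 at 4550 TPM (SD 515). Each neighbour in this order lay within the larger SD of the pair. The lowest tested members were Rpl39l at 0.727 TPM (SD 0.667), Rpl12 at 17.7 (SD 4.49), Rpl17 at 33.9 (SD 20.6), Rps23 at 37.5 (SD 21.5) and Rpsa, a small subunit protein also known as a laminin receptor, at 37.8 (SD 10.6). Apart from Rpl39l, these encode core ribosomal proteins.

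Rpl39l had no near-identical gene, and the other 4 of these low members had most of the reads of their sum on copies. Of the reads on Rpsa and its near-identical genes, 2.41% were on Rpsa. The share on the gene itself was 2.63% for Rpl17, 3.31% for Rpl12 and 4.09% for Rps23. Rps19 held 98.3% of its sum and Rpl32 held 100%. The value of Rpl32 was fixed beforehand, since it had no near-identical gene to add. Even so, 64.9% of the 20-base words of Rpl32 occurred in other genes. Its 100% therefore does not show that its reads were unambiguous. Among the 11 tested members with a mean under 100 TPM the median share was 4.09%, and among the 30 members of at least 1000 TPM it was 98.3%. With copies added, the ratio of the 90th to the 10th percentile of mean CPM over genes, which is not corrected for length, went from 44.7 to 9.09.

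**Figure D1:**
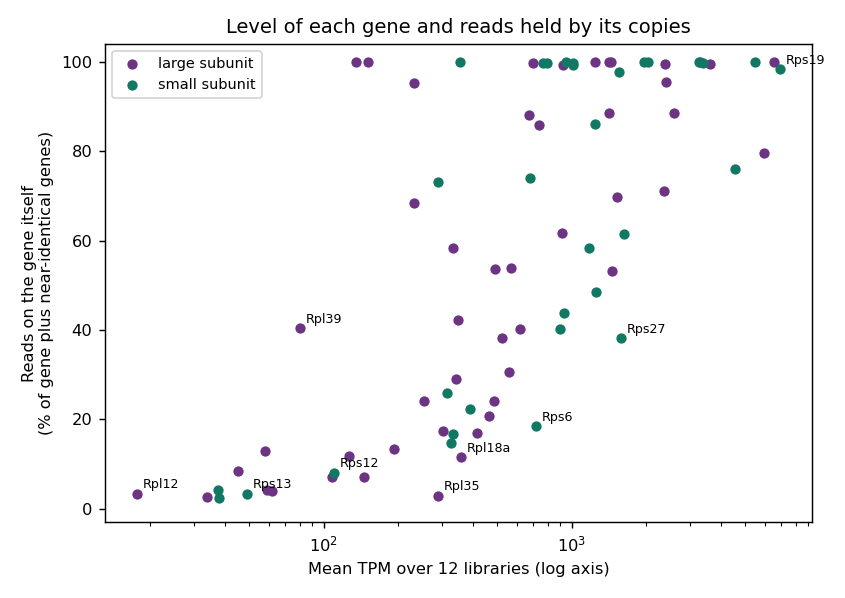
Mean TPM over 12 libraries (log axis) of tested members against the percentage of reads on the gene itself out of its reads and those of its near-identical genes. Rpl39l, the lowest tested member, and Rps27rt, which was summed with Rps27, are not drawn. Members at the left, such as Rpl12 and Rps13, kept 3.31% of the reads of their sum and Rps19 at the right kept 98.3%; purple marks the large subunit and green the small subunit.

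In sum, members took 4.72%, 4.36% and 5.25% of estimated reads in WT libraries at 8 weeks and 6.22%, 5.51% and 2.56% in knockout-labelled libraries at 8 weeks. At 20 weeks they took 5.25%, 4.87% and 6.56% in WT and 4.16%, 4.74% and 5.63% in knockout-labelled libraries. Both pairs of groups overlapped, and the lowest and highest shares were the knockout-labelled replicate 3 of 8 weeks and WT replicate 3 of 20 weeks. At 8 weeks the mean share was 4.78 ± 0.448% in WT and 4.76 ± 1.94% in knockout-labelled cells (SD, n = 3). At 20 weeks the means were 5.56 ± 0.887% and 4.84 ± 0.74%. With near-identical genes the 4 means were 7.75 ± 0.882%, 7.98 ± 3.32%, 9.05 ± 1.21% and 8.12 ± 1.25% in the same order. In bulk RNA, fewer cells of a type and less RNA per cell cannot be told apart.

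Small and large subunit genes moved together from library to library. Each member's log2 CPM was set against its own mean over the 12 libraries, and the median over the 83 members was taken per library. It was 0.56 in WT replicate 3 of 20 weeks, where 77 members lay above their mean, 0.41 in the knockout-labelled replicate 1 of 8 weeks (70 members) and 0.30 in WT replicate 3 of 8 weeks (73 members). It was -0.48 in the knockout-labelled replicate 3 of 8 weeks (14 members above) and -0.38 in the knockout-labelled replicate 1 of 20 weeks (7 members above). The 3 high libraries came from 3 groups, and both low ones were knockout-labelled. At 20 weeks the medians were -0.02, -0.12 and 0.56 in WT and -0.38, -0.16 and 0.10 in knockout-labelled libraries, with overlap. The subunit medians lay close to each other in these libraries, at 0.59 for the small and 0.54 for the large subunit in WT replicate 3 of 20 weeks, and at -0.48 and -0.53 in the knockout-labelled replicate 3 of 8 weeks.

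Members are short, with a median length of 651 bases and 68 of 83 under 1000 bases. The 1118 other tested genes under that length had library medians from -0.21 to 0.25, and the 8387 genes over 2 kb had medians from -0.07 to 0.12. Translation factors and further mRNAs with the pyrimidine tract (20 genes) ranged from -0.29 in the same knockout-labelled replicate 3 of 8 weeks to 0.28. Ribosome biogenesis genes (80 genes) ranged from -0.22 to 0.12 and mitochondrial ribosomal proteins (78 genes) from -0.17 to 0.27. The part of transcript length and of the 10 most abundant genes in the library pattern was not tested.

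**Figure D2:**
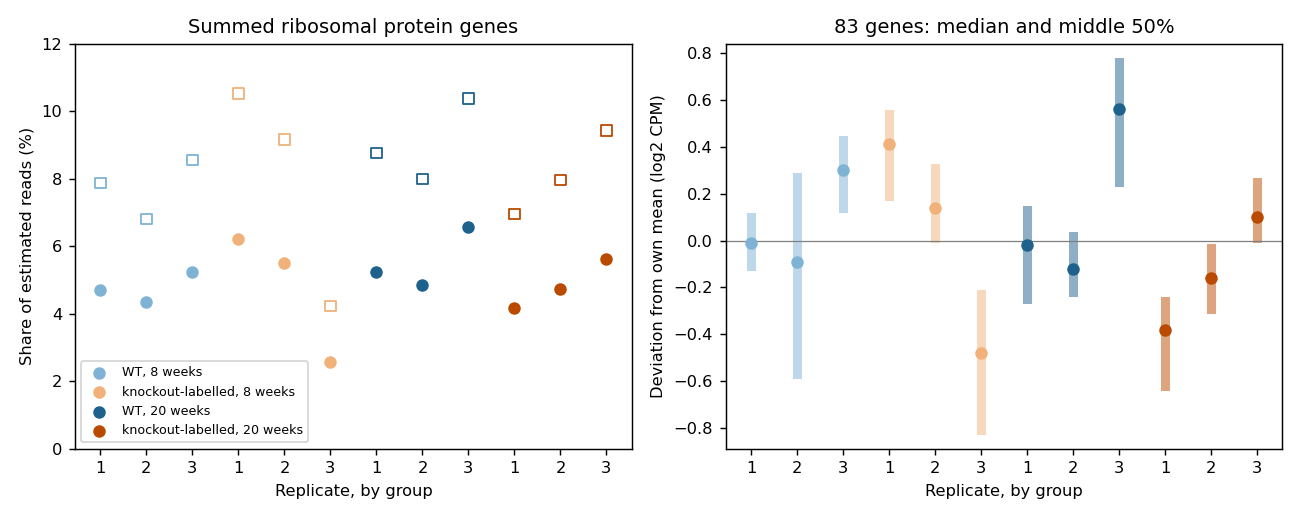
Left, share of estimated reads (%) on the 85 members in each library (filled circles) and with near-identical genes added (open squares). Right, the median (circle) and middle 50% (bar) over the 83 tested members of the deviation from each gene's own 12-library mean, in log2 CPM; WT replicate 3 of 20 weeks is highest at 0.56 and the knockout-labelled replicate 3 of 8 weeks lowest at -0.48.

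The genotype comparison at 20 weeks asked whether ribosomal protein mRNAs differ in cells that developed without Rag1, late after transplant. No member was called by edgeR's quasi-likelihood test at a Benjamini-Hochberg adjusted p under 0.05 (0 of 83, against 0.0554% of the 14431 tested genes). DESeq2 and limma-voom called 0 as well, and 3 members had an unadjusted p under 0.05 in edgeR, against 2.08% of all genes. The fitted difference was below 0 in 76 of 83 members, with a median log2 fold change of -0.31, while the median over all genes was -0.01. The median rested on single libraries: leaving out WT replicate 3 gave -0.08 with 64 members below 0 and 0 at an unadjusted p under 0.05, and leaving out knockout-labelled replicate 1 gave -0.18. It was -0.56, with 16 members at an unadjusted p under 0.05 and 0 called, with the thread number of the file headers as a covariate, which all 3 knockout-labelled libraries and WT replicate 3 shared. In 2 members, Rps27rt and Rpl4, all knockout-labelled libraries lay below all WT libraries, and in 0 members above, against 6.08% and 5.34% of all genes. Summed B cell markers also did not overlap at this time, at 102 to 111 CPM in knockout-labelled and 126 to 156 CPM in WT libraries. Summed ILC2 markers did not overlap either, at 6850 to 7300 CPM in knockout-labelled and 7500 to 8220 CPM in WT libraries. The part of either in the result was not tested.

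At 8 weeks the members fell on both sides of 0. Of 83 members 0 were called by edgeR (0.201% of all genes were), by DESeq2 or by limma-voom, and 3 had an unadjusted p under 0.05 in edgeR, against 3.62% of all genes. The median log2 fold change was 0.02, with 44 members above and 39 below 0, beside 0.02 over all genes. Leaving out knockout-labelled replicate 1 moved the median to -0.22 with 74 members below 0, and leaving out knockout-labelled replicate 3, which stood apart, moved it to 0.23 with 61 above. Same-numbered libraries were taken as paired at this time because their deviations from the group means correlated. The labels do not say that they share a mouse. With the replicate as a block within time the median was -0.04, with 47 members below 0, 2 at an unadjusted p under 0.05 and 0 called. In 2 members, Rpl12 and Rpl39l, knockout-labelled libraries lay above all WT libraries, and in 1, Rps6, below, against 2.91% and 2.72% of all genes. Summed B cell markers overlapped, at 125 to 216 CPM in WT and 131 to 432 CPM in knockout-labelled libraries. Of 9 tested B cell markers, 8 had a log2 value above 0 (median 2.27). Of these, 5 had an unadjusted p under 0.05 in edgeR, against 271 of 14431 genes that were higher at that p, and 0 were called. The part of these markers in the result was not tested.

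Averaged over both times, 0 of 83 members were called by edgeR, DESeq2 or limma-voom (0.222% of all genes were called by edgeR), and 5 had an unadjusted p under 0.05 in edgeR, against 3.71% of all genes. All 5 had a negative difference, against 1.77% of all genes that were lower at that p. The count was 1 without WT replicate 3 of 20 weeks, 1 with near-identical genes added and 15 with thread number as a covariate, with 0 called in each. These 5 were Rps27rt, Rpl9, Rps6, Rpl10 and Rps13, each with near-identical genes. The interaction of genotype with time also gave 0 calls with the 3 tools (0.097% of all genes were called by edgeR) and 1 member with an unadjusted p under 0.05, Rpl39l, against 2.18% of all genes. Its median over members was -0.32, with 71 of 83 below 0, beside -0.03 over all genes. The 9 tested B cell markers had a median of -3.10 in the same comparison, with 8 below 0, and their part in the result was not tested. Leaving out single libraries gave -0.07 (WT replicate 3, 20 weeks), -0.11 (knockout-labelled replicate 1, 8 weeks) and -0.50 with 5 members at an unadjusted p under 0.05 (knockout-labelled replicate 3, 8 weeks).

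Time after transplant gave no calls either. In WT cells 0 of 83 members were called by edgeR, DESeq2 or limma-voom, although 0.513% of all genes were called by edgeR, and 3 members had an unadjusted p under 0.05 (13.3% of all genes did). The median log2 fold change from 8 to 20 weeks was 0.07, with 49 members above 0. Leaving out WT replicate 3 of 20 weeks turned it to -0.16, with 58 members below 0 and 9 at an unadjusted p under 0.05. In knockout-labelled cells 0 of 83 were called by the 3 tools (0.0624% of all genes by edgeR), and 3 had an unadjusted p under 0.05, against 8.33% of all genes. There the median was -0.18, with 66 members below 0, which became 0.01 when replicate 1 of the 8-week group was left out. Leaving out replicate 3 of that group, which stood apart, gave -0.38 with 71 members below 0 and 21 at an unadjusted p under 0.05, and leaving out both 8-week libraries that stood apart gave -0.38 with 28, with 0 called in each. Summed B cell markers in these libraries did not overlap between times, at 131 to 432 CPM at 8 weeks and 102 to 111 CPM at 20 weeks. All 9 tested B cell markers had a log2 value below 0 (median -2.50) at an unadjusted p under 0.05, and 0 were called by edgeR. Their part in the result was not tested. The later knockout-labelled libraries lay below all earlier ones in 5 members (Rpl3, Rps16, Rps25, Rps27l and Rpl39l) and above in 1 (Rpl17), against 8.12% and 8.32% of all genes. In WT the corresponding counts were 0 below and 1 above (Rpl4), against 9.04% and 10.3%. The time and genotype comparisons share libraries, and no date is given, so time after transplant cannot be told apart from a batch shared by the libraries of 1 time.

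**Figure D3:**
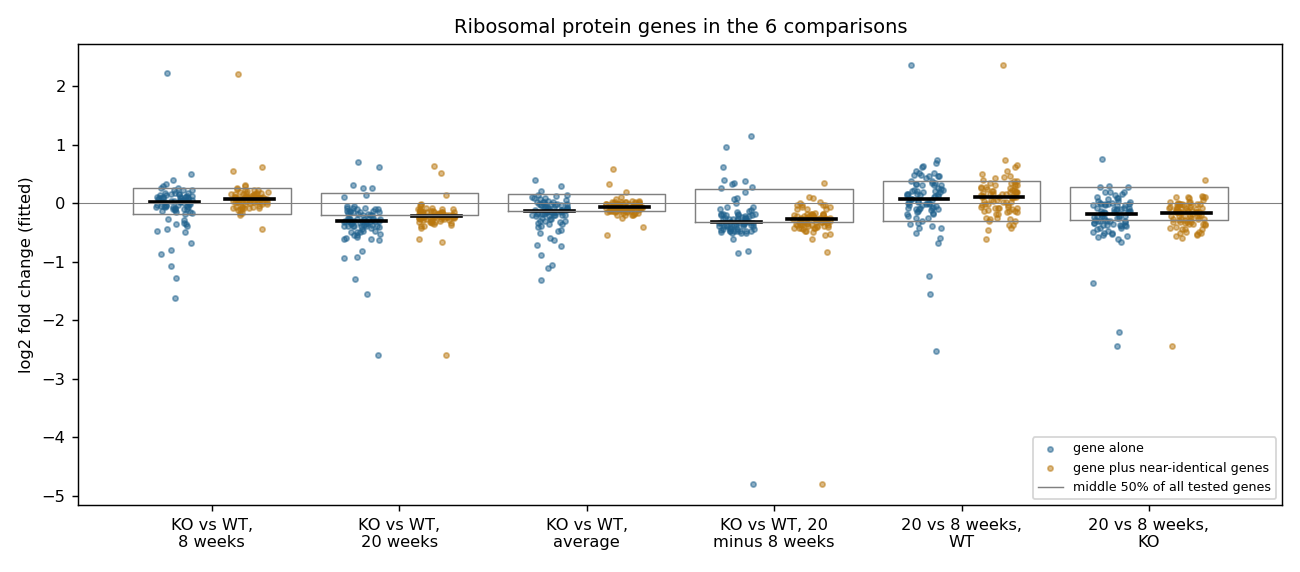
Fitted log2 fold change of each member in the 6 comparisons, alone (blue) and summed with near-identical genes (orange), with black bars at the medians and grey boxes for the middle 50% of all tested genes. KO stands for knockout-labelled; at 20 weeks the median is -0.31 alone and -0.22 with copies, and the point near -4.81 is Rpl39l, a gene at under 1 CPM.

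Rps19 and Rps3 are small subunit genes with few or no reads on near-identical genes. Rps19 stood at 2600, 2360 and 2240 CPM in WT and 3180, 3010 and 1870 CPM in knockout-labelled libraries at 8 weeks, and at 2360, 2260 and 2700 CPM and 2110, 2240 and 2510 CPM at 20 weeks. The groups overlapped at both times, and the difference averaged over times was 0.03 on the log2 scale (SE 0.15, edgeR adjusted p = 1). Rps3, which lies at the mRNA entry channel and also takes part in NF-kB signalling, stood at 1890, 1790 and 2260 CPM in WT and 2610, 2240 and 1420 CPM in knockout-labelled libraries at 8 weeks. At 20 weeks it stood at 2290, 2010 and 2650 CPM and at 1650, 2000 and 2210 CPM. Its averaged difference was -0.09 (SE 0.17, edgeR adjusted p = 1), again with overlapping groups.

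Rps14, which forms part of the platform of the small subunit, was the abundant member with the lowest time values. It stood at 2260, 3610 and 1920 CPM in WT at 8 weeks and at 1660, 1540 and 1940 CPM in WT at 20 weeks. In knockout-labelled cells it stood at 2610, 2760 and 1630 CPM and then at 1380, 1430 and 1790 CPM. The log2 fold change from 8 to 20 weeks was -0.60 (SE 0.27, edgeR adjusted p = 0.367) in WT and -0.61 (SE 0.27, edgeR adjusted p = 0.585) in knockout-labelled cells, and groups overlapped in both. Rps18 showed log2 values of -0.25 and -0.39 over the same intervals, neither called. Rps26 and Rps24, whose loss also causes Diamond-Blackfan anaemia, had genotype differences at 20 weeks of -0.32 and -0.39 that were not called.

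Rps2, which lies at the mRNA entry site, was the one member with a positive difference and an unadjusted p under 0.05 at 20 weeks. It stood at 133, 134 and 127 CPM in WT and at 132, 307 and 202 CPM in knockout-labelled libraries, so that the groups overlapped and knockout-labelled replicate 2 was highest. The log2 fold change was 0.70 (SE 0.29, edgeR adjusted p = 1), and it was 0.34 without that replicate. Read from protein-coding transcripts alone the value was 1.53, and with near-identical genes it was 0.51.

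Rps6, the small subunit protein phosphorylated by S6 kinases, stood at 431, 1060 and 590 CPM in WT and at 379, 415 and 348 CPM in knockout-labelled libraries at 8 weeks, with no overlap. At 20 weeks it stood at 264, 390 and 800 CPM and at 253, 303 and 399 CPM. The difference averaged over times was -0.74 (SE 0.28, edgeR adjusted p = 1). With its 7 near-identical genes, which held a median of 82% of the summed reads, Rps6 lay between 1860 and 2670 CPM in all 12 libraries. The averaged difference of the sum was -0.11 (SE 0.14).

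Rps27 and Rps27rt ran in opposite order over the WT libraries of 20 weeks, and not over the knockout-labelled libraries of that time. Since almost all words of Rps27 are shared, the split of reads between the 2 genes is uncertain. Rps27 stood at 296, 468 and 289 CPM in WT and 324, 317 and 186 CPM in knockout-labelled libraries at 8 weeks, and at 277, 358 and 362 CPM in knockout-labelled libraries at 20 weeks. In WT at 20 weeks it stood at 423 and 229 CPM in replicates 1 and 2 and was listed at 0 in replicate 3. Rps27rt stood at 425, 684 and 1540 CPM in those 3 WT libraries, and its 1540 CPM was its highest value. In knockout-labelled libraries at 20 weeks it stood at 274, 402 and 399 CPM.

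Rps27rt gave the smallest p among members at 20 weeks, with a log2 fold change of -1.30 (SE 0.42, edgeR adjusted p = 1). Without WT replicate 3, the fold change was -0.63. Summed with Rps27 the values were 849, 914 and 1550 CPM in WT and 552, 761 and 763 CPM in knockout-labelled libraries, still without overlap, and the log2 fold change was -0.67 (SE 0.31, edgeR adjusted p = 1). The sum at 8 weeks was 674, 1210 and 828 CPM in WT and 746, 794 and 477 CPM in knockout-labelled libraries, with overlap. Rps27l, the diverged paralog that p53 induces, has 77.1% identity to Rps27 and none of its 20-base words. It stood at 179, 156 and 149 CPM in knockout-labelled libraries at 8 weeks and at 95.8, 101 and 127 CPM at 20 weeks, without overlap (log2 fold change -0.58, SE 0.26, edgeR adjusted p = 0.582). In WT libraries Rps27l stood at 179, 86.6 and 179 CPM and then at 113, 106 and 142 CPM, with overlap.

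Rps12 and Rps13 were estimated low and unevenly. Rps12 stood at 10.8, 145 and 19.7 CPM in WT at 8 weeks, at 105 and 84.6 CPM with 0 listed in replicate 3 in knockout-labelled libraries at 8 weeks, and at 25.4 and 34.1 CPM with 0 listed in replicate 3 in WT at 20 weeks. Its 16 near-identical genes, of which Rps12l1 and Rps12-ps3 had the most reads, held a median of 94.6% of the summed reads. The sum stood at 459, 524 and 577 CPM in WT at 8 weeks and at 422, 407 and 650 CPM in WT at 20 weeks, so no library was near 0. In knockout-labelled libraries it stood at 753, 608 and 250 CPM at 8 weeks and at 314, 404 and 541 CPM at 20 weeks. Rps13 ranged from 4.23 to 80.1 CPM, an 18.9-fold span, and its sum from 259 to 746 CPM, a 2.88-fold span.

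Among large subunit genes, Rpl32 had no near-identical gene, although 64.9% of its 20-base words occurred in other genes. It stood at 2810, 2070 and 2740 CPM in WT and 3510, 3260 and 1390 CPM in knockout-labelled libraries at 8 weeks. At 20 weeks it stood at 2300, 2430 and 3110 CPM and at 2100, 2400 and 2770 CPM. The averaged genotype difference was -0.01 (SE 0.22, edgeR adjusted p = 1). Rpl3, which reaches towards the peptidyl transferase centre, spread less, from 1940 to 2990 CPM, with a log2 fold change from 8 to 20 weeks of -0.38 (SE 0.18, edgeR adjusted p = 0.618) in knockout-labelled cells. Rpl41 and Rpl13a had averaged genotype values of 0.09 each, neither called.

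Rpl5 and Rpl11, which with 5S ribosomal RNA bind Mdm2 when ribosome assembly stalls, were not called in any genotype comparison. Rpl11 stood at 215, 59.1 and 235 CPM in WT and 325, 236 and 105 CPM in knockout-labelled libraries at 8 weeks, and at 274, 186 and 252 CPM and 176, 197 and 275 CPM at 20 weeks. The groups overlapped at both times, and the averaged value was 0.13 (SE 0.33, edgeR adjusted p = 1). Leaving out 1 library in turn, the 8-week genotype value of Rpl11 ranged from -0.02 to 0.73. Rpl5 ranged from 29.8 to 66.5 CPM alone and from 975 to 1490 CPM with its near-identical genes, of which Rpl5 itself held 4.07%. The sum of Rpl5 lay at 991 to 1090 CPM in knockout-labelled libraries at 20 weeks and at 1330 to 1490 CPM at 8 weeks, without overlap. Its log2 fold change with time in these was -0.45 (SE 0.16, edgeR adjusted p = 0.462). In WT libraries the sum did not overlap either, at 975 to 1160 CPM at 20 weeks and 1340 to 1400 CPM at 8 weeks.

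Rpl9 gave the smallest p among members at 8 weeks, and 1 library made most of it. It stood at 66.7, 357 and 108 CPM in WT and at 58.3, 69 and 44.5 CPM in knockout-labelled libraries, with overlap. The log2 fold change was -1.63 (SE 0.54, edgeR adjusted p = 1), and it was -0.61 without WT replicate 2. With its 6 near-identical genes Rpl9 stood at 1030, 605 and 1220 CPM and at 1360, 1070 and 551 CPM, and the value was 0.06 (SE 0.33). WT replicate 2, highest for Rpl9 alone, was the lowest WT library in this sum.

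Rpl35 showed the widest span of the members above 0 in every library. It stood at 36.3, 464 and 40.9 CPM in WT and 23.1, 157 and 42.9 CPM in knockout-labelled libraries at 8 weeks, and at 5.43, 17.5 and 71.2 CPM and 7.63, 15.3 and 25.8 CPM at 20 weeks, an 85.4-fold span. Both replicates 2 of 8 weeks were the highest of their groups. Summed with its 3 near-identical genes, it ranged from 1170 to 2330 CPM, a 1.99-fold span. The log2 fold change from 8 to 20 weeks in WT was -2.53 (SE 1.13, edgeR adjusted p = 0.362) alone and -0.43 (SE 0.22, edgeR adjusted p = 0.408) as a sum. Rpl10, a protein that joins the large subunit late in its assembly, had an averaged genotype value of -0.51 (SE 0.20, edgeR adjusted p = 1) alone and -0.01 (SE 0.21) as a sum.

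**Figure D4:**
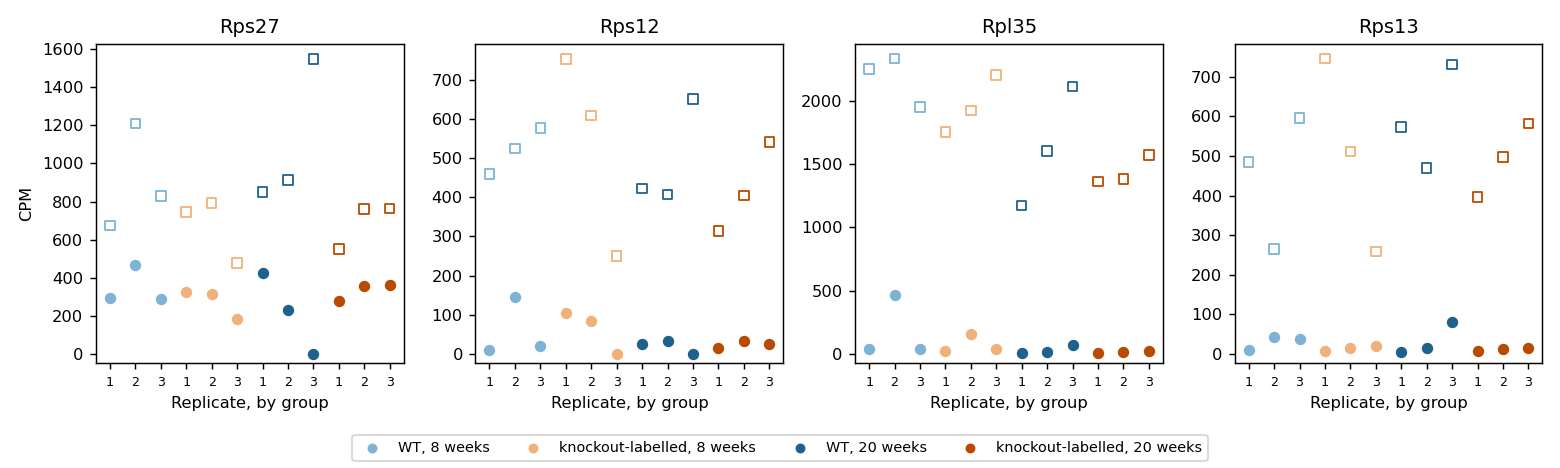
CPM in each library of Rps27, Rps12, Rpl35 and Rps13 alone (filled circles) and summed with near-identical genes (open squares), by group and replicate. Rps27 is listed at 0 in WT replicate 3 of 20 weeks while its sum with Rps27rt is 1550 CPM there, and Rpl35 spans 85.4-fold alone and 1.99-fold as a sum.

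The acidic stalk proteins recruit elongation factors to the ribosome. Rplp0, the base of the stalk, stood at 2820, 3420 and 3040 CPM in WT and 4450, 3580 and 1790 CPM in knockout-labelled libraries at 8 weeks, and at 3560, 2630 and 3020 CPM and 2480, 2790 and 3080 CPM at 20 weeks. Rplp1 ranged from 459 to 1320 CPM and Rplp2 from 254 to 713 CPM, both lowest in the knockout-labelled replicate 3 of 8 weeks and highest in replicate 1 of that group. The genotype values at 20 weeks were -0.14 (SE 0.28), -0.27 (SE 0.34) and -0.25 (SE 0.34) for Rplp0, Rplp1 and Rplp2, each with an edgeR adjusted p of 1. Groups overlapped for all 3 genes at both times.

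In the pairs Rpl22 with Rpl22l1 and Rpl36a with Rpl36al, the first had the higher TPM in all 12 libraries. Rpl22, whose loss impairs early T cell development, had a mean of 699 TPM (SD 203) and its paralog Rpl22l1 231 TPM (SD 73.9), and their coding sequences are 66.6% identical. Their genotype values at 20 weeks were -0.38 (SE 0.35) and -0.40 (SE 0.37), neither called by edgeR. Rpl36a had a mean of 927 TPM (SD 225) and Rpl36al 332 TPM (SD 80.9), with 87.9% identity and 20-week values of -0.34 (SE 0.31) and -0.42 (SE 0.29), again not called. Rps4x, the X-linked gene, ranged from 547 to 1260 TPM and had an averaged genotype value of -0.06 (SE 0.21).

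Rpl39 lines the peptide exit tunnel, and Rpl39l replaces it in male germ cells. Rpl39 stood at 35.6, 4.07 and 50.8 CPM in WT and 50.7, 36.9 and 20.7 CPM in knockout-labelled libraries at 8 weeks, and at 38.2, 33.3 and 80.6 CPM and 24.1, 30.8 and 45.4 CPM at 20 weeks. Rpl39l stood at 0.235, 0 and 0.0539 CPM in WT and 0.627, 0.523 and 0.412 CPM in knockout-labelled libraries at 8 weeks, without overlap. At 20 weeks it stood at 0.187, 0.685 and 0.833 CPM in WT and 0.239, 0.0222 and 0 CPM in knockout-labelled libraries, with overlap. The interaction was -4.81 (SE 1.59, edgeR adjusted p = 1), a fitted value that rests on the prior count because several libraries are at or near 0.

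The spread of members was read before and after the library median was removed. That median is taken from the members themselves, so its removal tends to lower their SD. The median SD of log2 CPM over the 12 libraries was 0.425 before and 0.279 after. It was 0.314, with nothing removed, in 1290 other genes of like level, so the member value to set beside it is 0.425. Among the smallest SDs after removal were those of Rpl21, Rpl36a and Rps3 (0.11 each) and Rpl26 (0.12). The largest belonged to Rps27 (3.38), Rps12 (3.26), Rpl35, Rpl39l and Rps13. Those of Rps27 and Rps12 rest in part on the prior count of 2, since each had libraries listed at 0.

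With near-identical genes added, the median SD after removal was 0.209, and the number of genes above 1 went from 5 to 1, Rpl39l. The SD after removal became 0.38 for the sum of Rps27 and Rps27rt and 0.19 for that of Rps12. Across members, the share of 20-base words held by other genes and the SD after removal had a Spearman rho of 0.245. The median SD was 0.333 in the 22 members that shared at least 50% and 0.24 in the 20 that shared under 20%. The points share libraries and depth.

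**Figure D5:**
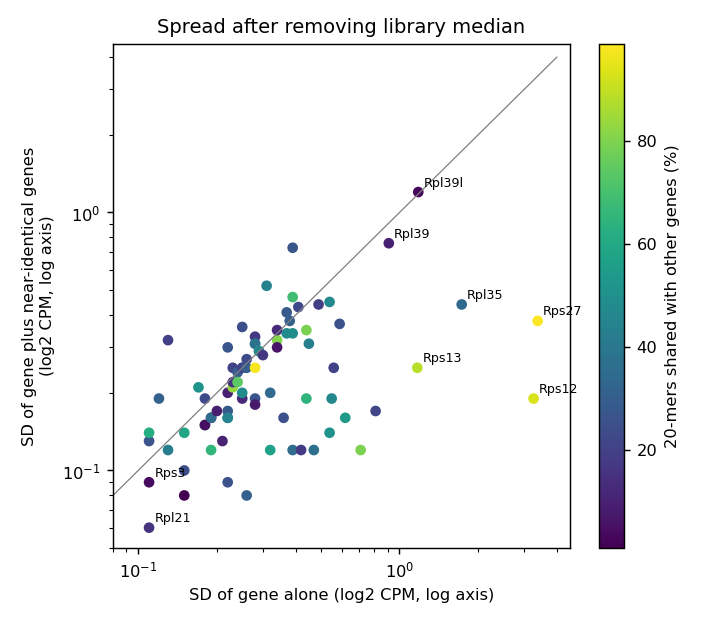
SD of log2 CPM over 12 libraries after the library median was removed, for tested members alone (x, log axis) and summed with near-identical genes (y, log axis), coloured by the percentage of 20-base words shared with other genes. Rps27rt, which was summed with Rps27, is not drawn. The grey line marks equality; Rps27 (3.38 alone, 0.38 as a sum) and Rps12 (3.26 and 0.19) lie far below it and Rpl39l lies on it.

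Transcript types were alike in sum and unlike in single genes. Protein-coding transcripts held 89.9% to 91.3% of member reads in each library, those without a reading frame 3.5% to 6.05%, those with a retained intron 1.63% to 3.43% and targets of nonsense-mediated decay 1.24% to 2.68%. For Rps6 the protein-coding share was 98.6% to 99.8% in 10 libraries, 74.2% in the knockout-labelled replicate 2 of 8 weeks and 13.7% in WT replicate 2 of 8 weeks. For Rpl35 the same 2 libraries held 4.42% and 3.89%, against 18.9% to 59.3% in the others. Both libraries thus lay below the rest for Rps6 and Rpl35, which were chosen after their values were seen, and WT replicate 2 is also the library that set Rpl9 and Rpl35 apart at 8 weeks.

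Genes that serve the ribosome were read beside the members. Per comparison, edgeR called 0.0554% to 0.513% of all genes. Of 80 ribosome biogenesis genes 1 was called in the 6 comparisons, Pes1, a factor of large subunit assembly. It stood at 39.3 ± 8.32 CPM (SD, n = 3) in WT and 170 ± 25.4 CPM in knockout-labelled cells at 8 weeks, and at 144 ± 12.8 and 153 ± 32.3 CPM at 20 weeks. It was higher in knockout-labelled cells at 8 weeks (log2 fold change 2.11, SE 0.22, edgeR adjusted p = 0.00108) and rose with time in WT (1.88, SE 0.22, edgeR adjusted p = 0.00123). The 8-week call was lost in 2 of 28 alternatives, with an edgeR adjusted p of up to 0.448. The call for time in WT was lost in 1 of 27, with an edgeR adjusted p of 0.31. The low group was thus WT at 8 weeks, in which the summed share of member reads was near the other groups.

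A further 4 lists gave 0 calls by edgeR in each of the 6 comparisons: 20 translation factors, 14 RNA polymerase I genes, 20 genes of mTORC1 and Myc control, and 78 mitochondrial ribosomal proteins. Mitochondrial ribosomal proteins had medians of -0.22 in WT and -0.26 in knockout-labelled cells from 8 to 20 weeks, with 17 and 14 genes lower at an unadjusted p under 0.05, against 7.29% and 5.18% of all genes. Cytosolic members had medians of 0.07 and -0.18 over the same intervals. Of 9 tested genes linked to Mdm2 and p53 in ribosomal stress, 5 had a log2 value above 0 with time in WT (median 0.31). In knockout-labelled cells 3 did (median -0.19). In WT 3 were higher at an unadjusted p under 0.05 in edgeR, against 862 of 14431 genes. With time 1 gene was called by edgeR in each genotype, against 0.513% of all genes in WT and 0.0624% in knockout-labelled cells. This was Cdkn1a, the cell cycle inhibitor induced by p53. It fell from 65.9 ± 17.2 to 15.3 ± 2.6 CPM in WT (log2 fold change -2.10, SE 0.24, edgeR adjusted p = 0.00123) and from 60.7 ± 14.7 to 17.4 ± 0.796 CPM in knockout-labelled cells (-1.80, SE 0.24, edgeR adjusted p = 0.0157). The latter call was lost in 7 of 26 alternatives, with an adjusted p of up to 0.182 by edgeR. Mdm2 stood at 49.2 ± 5.17 and 68.2 ± 3.93 CPM in WT at 8 and 20 weeks and was not called (edgeR adjusted p = 0.25).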

How the data were processed

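Per the file headers, the authors made each file with sailfish 0.6.3 from 20-base words of Ensembl release 76 transcripts. It gives an estimated count of reads and a TPM per transcript as deposited. Other tools named in the submitters' processing notes (featureCounts 1.4.5, Subread, STAR 2.0.4b, bcl2fastq) appear there without a role. The labels name polyA RNA and a protocol of ribosomal RNA removal, and strand is not stated, so reads of overlapping antisense genes cannot be told apart. Of 86127 transcripts, 83739 were matched by identifier to GENCODE M21. The others held 1.01% to 1.54% of reads.

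Estimated counts were summed per gene, rounded, filtered with filterByExpr and fitted in edgeR 4.0.16 with TMM factors, the quasi-likelihood test, 4 group means and 6 contrasts. P-values were adjusted over 14431 genes and called under 0.05. The common biological coefficient of variation was 0.377. DESeq2 1.42.0, limma-voom (limma 3.58.1) and other scalings, filters, values, covariates and sample sets were alternatives. Fits were tested on simulated counts in which 200 of 14431 genes were changed. At 20 weeks, 0% of genes changed by 1 on the log2 scale were called, and 56% of those changed by 2. For genotype averaged over times these were 34% and 74%. A count of 0 called members thus does not show that levels were equal. Log2 CPM used a prior count of 2. The sum with near-identical genes uses forward-strand 20-base words and the 50% limit. TPM set levels between genes.

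The members, gene lists and tests were chosen with earlier results of these data known. Members named are those called, the 3 highest and 3 lowest fold changes of each contrast, the 5 highest and lowest by TPM and by SD, a list of paralogs and disease genes, and others said to be chosen later. Other genes named are those called and the smallest p of a list. Replicate numbers recur across groups. At 8 weeks the deviations of same-numbered WT and knockout-labelled libraries correlated at 0.226, 0.158 and 0.107, so these were taken as paired. The fit without a block gives the values printed, and the blocked value stands beside the 8-week count. The labels do not say that a number marks a shared mouse. No protein sequence was used here, and some genes and 1 sequence that these rules name are not reported here.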

Additional observations from a re-analysis of the deposited data

Results flagged for a closer look

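No ribosomal protein gene met a condition for a closer look. Among the genes read beside them, Pes1 differed between genotypes by time: its interaction was -2.03 on the log2 scale (SE 0.30, edgeR adjusted p = 0.0273), since knockout-labelled cells lay above WT at 8 weeks (170 ± 25.4 against 39.3 ± 8.32 CPM, SD, n = 3) and beside WT at 20 weeks. The call was lost in 12 of 26 alternatives, with an edgeR adjusted p of up to 0.184 with the replicate block within time, while the value stayed between -2.29 and -1.86.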

How the results depend on the processing

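The count of called members was 0 in all 160 alternatives, while the medians moved. Leaving out 1 library in turn, the median ranged from -0.45 to -0.08 at 20 weeks, -0.22 to 0.23 at 8 weeks, -0.27 to -0.02 averaged, -0.50 to -0.07 for the interaction, -0.16 to 0.21 for time in WT and -0.38 to 0.01 for time in knockout-labelled cells. With the replicate number as a block, 0 members were called and the 20-week median was -0.28 (-0.30 with the block within time), and the 8-week median was 0.03 (-0.04). At 20 weeks same-numbered pairs correlated at 0.071, 0.072 and 0.117, and at both times each library correlated best with its own number. The block changed no call among members. Shares of reads moved with the measure: as TPM they were 9.35%, 9.38%, 10.7% and 9.64% (WT and knockout-labelled at 8 weeks, then at 20), with named pseudogenes 6.11%, 7.14% and 6.35% (WT at 8 weeks, then both at 20), and 5.44% without the 10 top genes (WT at 8 weeks). With near-identical genes they were 7.75%, 7.98%, 9.05% and 8.12%. Of 953 alternatives of 36 single values, 33 reversed and none was called (lowest adjusted p 0.137 by edgeR, DESeq2 or limma). The cause of the reversals was not tested. With near-identical genes added, Rps12 (20 weeks -0.22, averaged -0.09), Rps27 (20 weeks -0.67, interaction -0.22), Rpl9 (8 weeks 0.06, interaction -0.27, time in WT 0.19), Rps13 (8 weeks 0.17), Rpl5 and Rpl17 (time in knockout-labelled cells -0.45 and -0.06) reversed; named pseudogenes reversed Rps13 (0.17), Rpl17 (-0.06) and Rpl9 (0.06). Leaving out 1 library in turn, Rps13 ranged from -2.08 to 0.18 and Rps12 from -0.27 to 0.93 at 20 weeks, Rpl35 from -2.47 to 0.94 and Rpl11 from -0.02 to 0.73 at 8 weeks, averaged Rpl35 from -1.70 to 0.01 and Rps12 from -0.08 to 1.19, and Rps12 for time in WT from -2.19 to 0.39. Without WT replicate 3 of 20 weeks, Rps13 was 0.18, Rps12 -0.27 and averaged -0.08, and Rps27rt -0.01 for time in WT. Without WT replicate 2 of 8 weeks, Rpl35 was 0.94 (averaged 0.01), Rpl11 -0.02 and Rps12 0.39 for time in WT. Averaged Rps12 was -0.04 and -0.08 without WT or knockout-labelled replicate 1 of 8 weeks. Without both 8-week libraries that stand apart, Rpl35 was 1.23 (averaged 0.15), the interaction of Rpl9 -0.02 and time in WT of Rps12 0.40. From protein-coding transcripts, Rpl11 was -0.48 and Rpl24 -0.40. With thread number as a covariate Rpl24 was -0.06 and Rpl17 -0.13, with 8-thread libraries Rps27rt was -0.01, and with limma-voom Rps12 was 0.80. Depth limits Rpl39l and Rpl3l, at under 1 CPM.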
